A study of Homo sapiens with 10 samples.

Results

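Messenger RNA of 42 genes of autophagy and of the lysosome was measured in HCT116, an epithelial line of human colorectal cancer. The genes were listed by name as a functional set, with earlier results of these data known but no measured value in the rule, and all 42 were found among the 13029 genes of a *ZMAT3* knockout table and among the 17642 genes of a p53 knockdown table. The series holds 10 RNA-seq libraries from polyA-selected RNA, and the labels state that no drug was given. In the first experiment 3 *ZMAT3*-WT and 3 *ZMAT3*-KO libraries were compared, to ask which RNAs change when the p53-induced RNA-binding protein ZMAT3 is depleted. In the second, 2 siCTRL and 2 sip53 libraries were compared, to ask which RNAs change when p53 itself is depleted. All libraries share the same cell line and medium.

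*ZMAT3*-KO cells were made with Cas9 and a pair of guide RNAs on either side of the p53 response element in intron 2 of *ZMAT3*, and both the knockout and its wild-type control were grown from single cells after the same electroporation and puromycin selection. The knockout is 1 clone, so a difference between *ZMAT3*-KO and *ZMAT3*-WT cannot be told apart from a difference between clones. The labels of the *ZMAT3* libraries also carry the terms EV and unt, whose meaning was not given in the sources used here. siCTRL is a negative control siRNA and sip53 a pool of 4 siRNAs against p53. The sample annotation lists the same transfection time for every siCTRL and sip53 library, so that time does not differ between these groups. It is longer than the time in the paper's legend for its RT-qPCR and immunoblots after p53 knockdown. In bulk RNA, fewer cells of a type and less RNA per cell cannot be told apart. The libraries are called replicates in the labels, and p-values measure only the spread between them.

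Autophagy delivers cytoplasmic material to the lysosome. The ULK kinase complex and the class III PI3-kinase complex start a cup-shaped membrane, lipid transfer proteins feed it, and a ubiquitin-like conjugation system attaches ATG8 proteins (the LC3 and GABARAP families) to it, where they bind cargo receptors such as SQSTM1 (p62). The closed autophagosome fuses with the lysosome, whose proteases, glycosidases and lipid hydrolases digest the content. Transcription of many of these genes is driven by TFEB and TFE3, basic helix-loop-helix factors that bind an E-box with the core CACGTG, and p53 is known to induce several autophagy regulators directly.

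That E-box core was searched in the RefSeq promoters of the genes (GRCh38.p14, 250 bases before to 50 bases after each annotated start, both strands, which read the same because CACGTG is its own reverse complement). Of the 42 genes, 36 had a promoter in the table, and CACGTG was present in 7 of them (19.4%), against 8.77% of all 27305 genes and 7.26% of all 35116 promoters. The longer palindrome TCACGTGA, which contains the core, was present in 4 of the 36 genes (11.1%), against 1.18% of all genes and 0.98% of all promoters. All genes here means every gene with a promoter entry, expressed in these cells or not, and base composition was not matched. *UVRAG*, *LAMP2*, *CTSB*, *HEXA*, *ASAH1* and *PSAP* had no entry. The windows below show 60 bases of each of the 7 promoters around their E-box, 5′ to 3′ on the strand of the gene, with each CACGTG in capitals, because these are the genes whose promoters carry the letters that TFEB and TFE3 bind. Each window ends at the base before the annotated start, except that of *NEU1*, which runs from position -153 to -94 relative to it.
CTSA: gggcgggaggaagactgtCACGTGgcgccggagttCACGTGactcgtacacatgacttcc
MCOLN1: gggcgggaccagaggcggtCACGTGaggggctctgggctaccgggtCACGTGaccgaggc
LAMP1: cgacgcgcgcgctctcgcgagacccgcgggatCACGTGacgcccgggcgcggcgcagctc
CTSD: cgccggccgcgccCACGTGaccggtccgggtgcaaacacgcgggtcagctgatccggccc
NEU1: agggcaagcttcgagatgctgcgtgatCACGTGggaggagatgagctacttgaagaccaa
ATG14: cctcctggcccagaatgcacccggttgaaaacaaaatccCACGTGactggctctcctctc
ATG3: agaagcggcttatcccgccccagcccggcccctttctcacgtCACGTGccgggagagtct

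The *CTSA* window lies at chr20:45891275-45891334 on the plus strand and holds both of its 2 cores. *MCOLN1* (chr19:7522564-7522623, plus) likewise holds both of its 2, each within TCACGTGA. *LAMP1* (chr13:113297179-113297238, plus) shows 1 of the 6 cores of its promoter. *CTSD* (chr11:1763928-1763987, minus), *NEU1* (chr6:31862915-31862974, minus) and *ATG14* (chr14:55411831-55411890, minus) have 1 core each, and *ATG3* (chr3:112561963-112562022, minus) shows 1 of 2. A match of letters is a description and no measure of binding in these cells. Among these 7 genes, *NEU1* and *CTSD* were higher and *CTSA* was lower in *ZMAT3*-KO, and *CTSA* alone passed the test with sip53; the values are given with each gene's role.

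The labels were checked on *ZMAT3* and *CDKN1A*, a direct p53 target that encodes p21. *ZMAT3* read 5.00, 5.20 and 5.26 log2 CPM in *ZMAT3*-WT and 2.25, 2.34 and 2.20 in *ZMAT3*-KO. *CDKN1A* dropped in the siRNA experiment from 525.01 and 481.06 FPKM to 34.22 and 37.67 FPKM, and *ZMAT3* fell there by 2.31 on the log2 scale (unadjusted p = 0.000282). In the *ZMAT3* experiment *CDKN1A* read 7.66, 7.66 and 7.61 log2 CPM in *ZMAT3*-WT and 7.12, 7.06 and 7.15 in *ZMAT3*-KO, so this p53 target also differed between the clones (a log2 change of -0.53, limma adjusted p = 2.02e-08). All 6 epithelial markers examined were expressed in both tables, and leukocyte, endothelial and fibroblast markers had no row or summed to at most 10.9 CPM and 7.07 FPKM. The summed level of the 6 epithelial markers was 5170 to 5450 CPM in *ZMAT3*-WT and 3110 to 3200 CPM in *ZMAT3*-KO, with *KRT8* and *KRT18* lower by log2 changes of -0.94 and -0.82 and *EPCAM* at 0.01. Their part in the results that follow was not tested. Depth is unknown, since both tables hold normalized values and no counts.

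In length-normalized units, the 42 genes covered a wide range in siCTRL cells. *PSAP*, the precursor of the saposins that activate sphingolipid hydrolases, was highest at 371.1 ± 67.7 FPKM (SD, n = 2), followed by the cysteine protease gene *CTSB* at 273.8 ± 18.8 FPKM, *SQSTM1* at 191.4 ± 9.96 FPKM and *GRN* at 185.3 ± 24.2 FPKM. *SQSTM1* and *GRN* did not differ beyond their spread, nor did the next group of *CTSA*, *CTSD*, *LAMP1* and *GABARAPL2*, with means of 87.7, 86.9, 84.3 and 83.4 FPKM. At the low end stood *ULK2* at 3.27 FPKM, *UVRAG* at 3.11 FPKM and *TFEB* at 2.89 FPKM, which were within their spread of each other. The lipid transfer gene *ATG2B*, at 0.52 and 0.19 FPKM in siCTRL cells and 0.62 and 0.29 FPKM in sip53 cells, was the only gene of the set under the minimum mean of 0.5 FPKM, so 41 of the 42 were tested there. Roles were mixed along the order, with *BECN1* of the PI3-kinase complex at rank 10, *ATG13* of the kinase complex at rank 25 and the hydrolase gene *SMPD1* at rank 36.

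In *ZMAT3*-KO cells the set moved in both directions and by small amounts. With limma and Benjamini-Hochberg adjustment over all 13029 genes, 19 of 42 genes (45.2%) were higher at an adjusted p under 0.05, where 28.7% of all genes were, and 10 (23.8%) were lower, where 30.1% of all genes were. When a 1.5-fold change was also required, 1 gene was higher, *SQSTM1* (2.38% of the set, against 4.6% of all genes), and 0 were lower, against 4.37% of all genes. The median log2 fold change of the set was 0.054 and that of all genes -0.005, with a range from -0.55 for *WIPI1* to 0.68 for *SQSTM1*. Because libraries within a group agreed closely, with log2 standard errors from 0.0258 to 0.089, changes of less than 1.1-fold passed this test. Without *ZMAT3*-KO replicate 2 the count of lower genes was 6 in place of 10, and without *ZMAT3*-WT replicate 3 the count lower by 1.5-fold was 1 in place of 0.

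**Figure D1:**
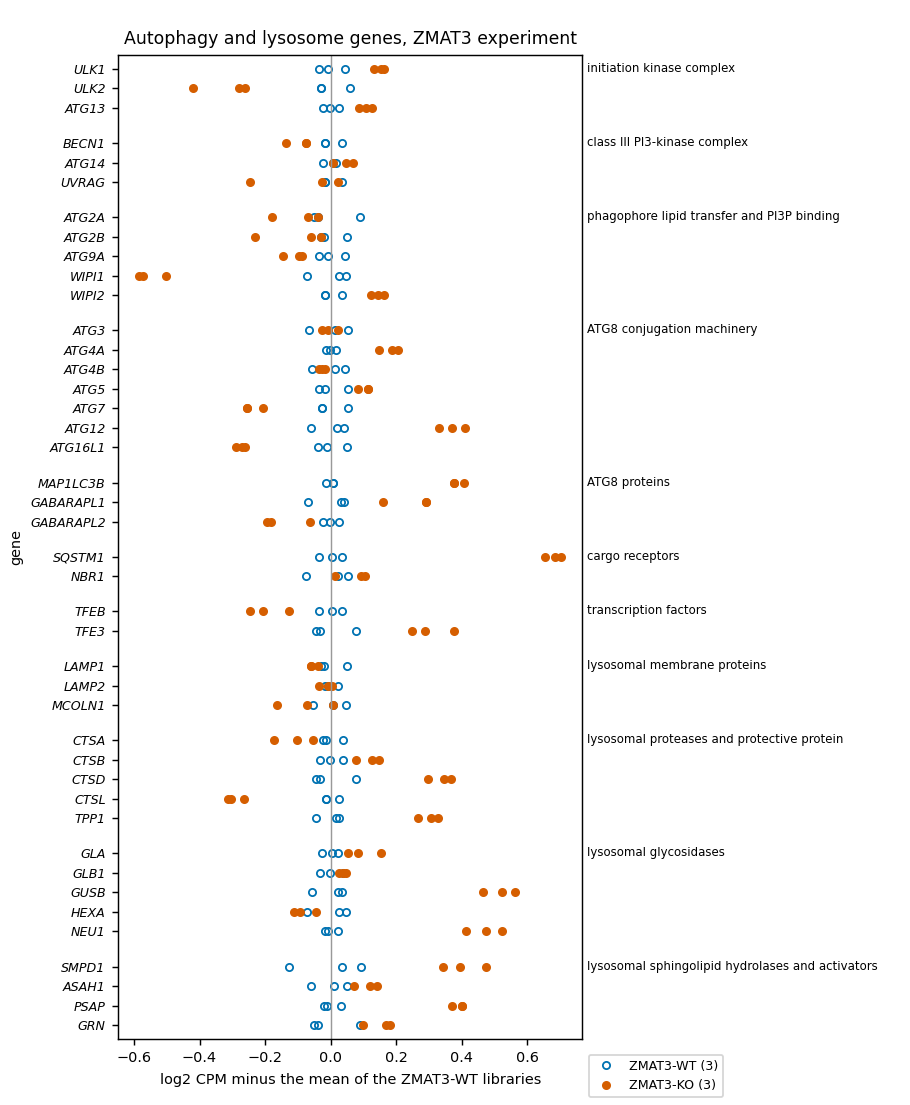
Each row is a gene, grouped by role, and each point a library: log2 CPM minus the mean of the 3 *ZMAT3*-WT libraries, with open circles for *ZMAT3*-WT and filled circles for *ZMAT3*-KO. *SQSTM1*, *GUSB* and *NEU1* lie farthest to the right and *WIPI1* farthest to the left, while the points of the lysosomal membrane genes lie close to 0.

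With sip53 the set moved toward lower levels. At an unadjusted p under 0.05, the threshold at which the study called this experiment, 8 of 41 genes (19.5%) were lower, where 9.28% of all 14274 genes tested were, and 0 were higher, where 5.86% were. None passed an adjusted p of 0.05 by limma with Benjamini-Hochberg adjustment, which 0.273% of all genes did. Both sip53 libraries lay below both siCTRL libraries for 16 of the 41 genes (39.0%), against 26.3% of all genes. They lay above for 2 (4.88%), *ATG14* and *CTSB*, and the share of all genes above is not given here. The median log2 fold change of the set was -0.195, that of all genes -0.04, and 31 of 41 values were negative. With 2 libraries a group the count depended on single libraries: 1 gene was lower at unadjusted p under 0.05 without siCTRL replicate 1, 3 without siCTRL replicate 2, 4 without sip53 replicate 2, and 6 without sip53 replicate 1. A fit with replicate number as a blocking factor gave 2.

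**Figure D2:**
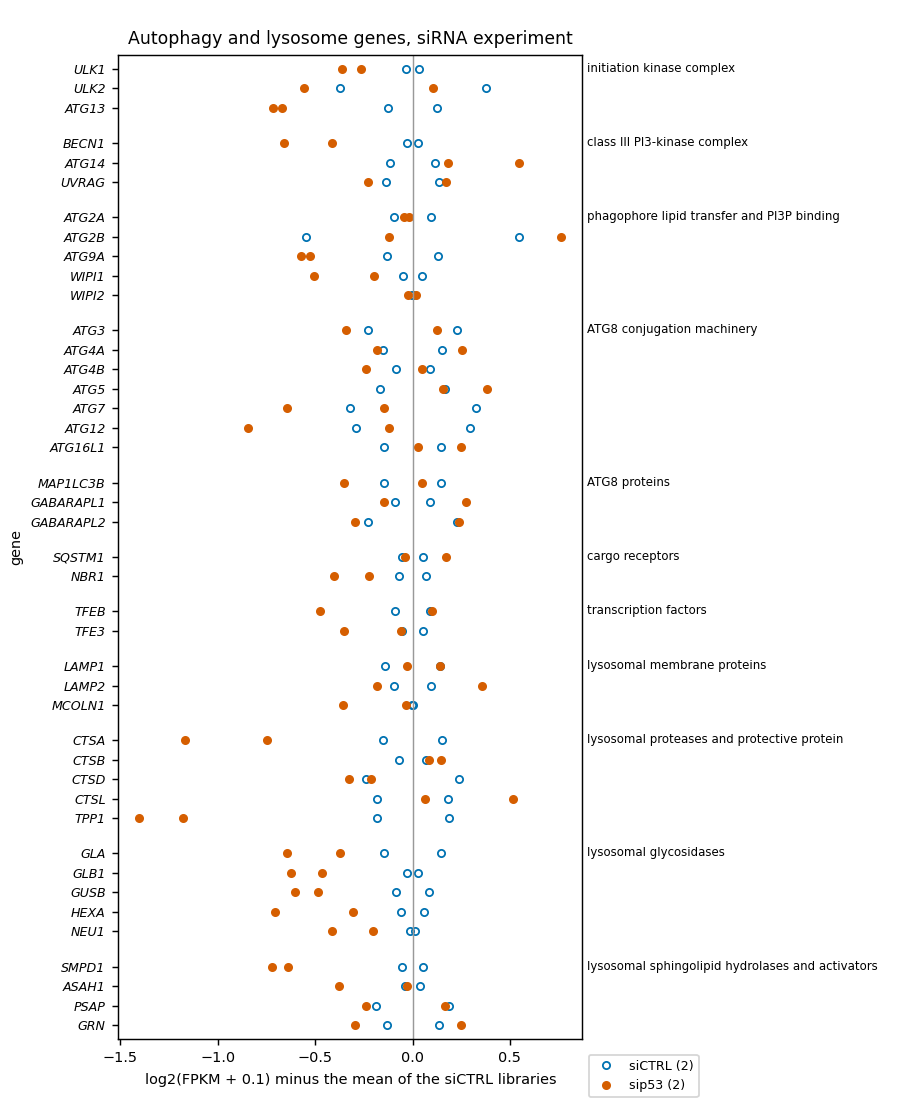
Each row is a gene, grouped by role, and each point a library: log2(FPKM + 0.1) minus the mean of the 2 siCTRL libraries, with open circles for siCTRL and filled circles for sip53. *TPP1* and *CTSA* lie farthest to the left, and in the 5 glycosidase rows every filled circle lies left of both open circles. *ATG2B* is drawn but was not tested.

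Among the kinases that start autophagy, *ULK2*, the less studied paralog of *ULK1*, read 2.89, 2.98 and 2.89 log2 CPM in *ZMAT3*-WT and 2.64, 2.66 and 2.50 in *ZMAT3*-KO. All knockout values were below all wild-type values, a log2 change of -0.32 (SE 0.0713, limma adjusted p = 0.00198). *ULK1* went the other way by 0.15 (limma adjusted p = 0.0113). *ATG13*, which encodes the adaptor subunit of the kinase complex, was higher by 0.10 in the knockout (limma adjusted p = 0.0168), with 5.59, 5.56 and 5.54 log2 CPM against 5.65, 5.69 and 5.67. With sip53 the same gene fell from 31.46 and 26.33 FPKM to 17.48 and 18.02 FPKM, a log2 change of -0.69 (SE 0.185, unadjusted p = 0.0116, limma adjusted p = 0.2). The siCTRL and sip53 values of *ATG13* did not overlap. Its exons overlap those of *HARBI1* on the opposite strand, and strand use is not given in the sources used here for the siRNA libraries. *ULK2* and *ULK1* gave -0.23 and -0.31 with sip53 and did not pass.

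*BECN1* encodes Beclin 1, the scaffold of the class III PI3-kinase complex, and was the gene of that group with the largest change in both experiments. Its values were 6.43, 6.48 and 6.43 log2 CPM in *ZMAT3*-WT and 6.37, 6.31 and 6.37 in *ZMAT3*-KO, a log2 change of -0.10 (SE 0.0324, limma adjusted p = 0.018). Under siCTRL it stood at 56.63 and 54.36 FPKM, under sip53 at 35.10 and 41.60 FPKM, a change of -0.54 (SE 0.184, unadjusted p = 0.0307, limma adjusted p = 0.275). Every treated value was below every control value in both experiments. *PSME3*, whose exons overlap those of *BECN1* on the opposite strand, also fell with sip53, by 0.60 on the log2 scale (unadjusted p = 0.0168), and was higher by 0.08 in *ZMAT3*-KO. *ATG14* and *UVRAG*, subunits that direct the complex to early and late steps, passed in neither experiment, with log2 changes of 0.04 and -0.08 in the knockout and 0.37 and -0.03 with sip53.

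*WIPI1* encodes a PROPPIN that binds phosphatidylinositol 3-phosphate on the forming membrane. It had the largest decrease of the set in *ZMAT3*-KO, at 3.95, 3.97 and 3.85 log2 CPM in wild type and 3.35, 3.42 and 3.34 in the knockout. The groups were well separated, with a log2 change of -0.55, or 1.47-fold (SE 0.055, limma adjusted p = 2.94e-06). *ARSG*, whose exons overlap those of *WIPI1* on the opposite strand, was at -0.19 (limma adjusted p = 0.0652). The paralog *WIPI2*, which recruits the conjugation machinery, changed by 0.15 in the opposite direction (limma adjusted p = 0.00164). With sip53, *WIPI1* read 18.60 and 14.98 FPKM against 20.64 and 22.03 FPKM, a change of -0.35 that did not pass (unadjusted p = 0.126), and *WIPI2* was at 0.00 with a 95% interval from -0.43 to 0.42.

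*ATG9A*, the gene of the scramblase whose vesicles seed the membrane, was lower in both experiments. It read 6.17, 6.09 and 6.12 log2 CPM in *ZMAT3*-WT and 6.04, 5.98 and 6.03 in *ZMAT3*-KO, a change of -0.11 (SE 0.0345, limma adjusted p = 0.0147). In the siRNA experiment it moved from 31.64 and 37.97 FPKM to 23.30 and 24.00 FPKM, a change of -0.55 (SE 0.186, unadjusted p = 0.0289, limma adjusted p = 0.269). No sip53 value reached a siCTRL value. The lipid transfer genes *ATG2A* and *ATG2B* gave log2 changes of -0.09 and -0.10 in the knockout, with overlapping groups, and did not pass.

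Of the 7 genes of the conjugation machinery, 3 (42.9%) were higher and 2 (28.6%) lower in *ZMAT3*-KO, against 28.7% and 30.1% of all genes. *ATG12*, the ubiquitin-like protein that is joined to ATG5, had the largest change, from 6.68, 6.78 and 6.76 log2 CPM to 7.07, 7.11 and 7.15 log2 CPM. The knockout libraries were all above the wild-type libraries, by 0.37 on the log2 scale (SE 0.0349, limma adjusted p = 1.82e-06). *AP3S1*, which overlaps *ATG12* on the opposite strand, was higher by 0.24. *ATG4A*, a protease that trims ATG8 proteins, was higher by 0.18 and *ATG5* by 0.10. *ATG16L1*, which binds the ATG12 and ATG5 conjugate and places it on the membrane, changed by -0.27 (limma adjusted p = 5.14e-05), and *ATG7*, the E1-like activating enzyme, gave -0.23 (limma adjusted p = 0.00105). The 3 proteins that form a single complex therefore had RNAs that changed in both directions. With sip53, *ATG12* had 47.05 and 28.48 FPKM against 41.76 and 62.74 FPKM with siCTRL. Both sip53 libraries lay below both siCTRL libraries in 0 of the 7 genes, against 26.3% of all genes. They lay above in 0 of the 7 as well, and the share of all genes above is not given here.

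The ATG8 genes encode the proteins that coat autophagosomes. *MAP1LC3B*, the source of the LC3 marker, read 6.55, 6.53 and 6.55 log2 CPM in *ZMAT3*-WT and 6.92, 6.92 and 6.95 in *ZMAT3*-KO. The values within each group were nearly the same, and the log2 change was 0.39, or 1.31-fold (SE 0.028, limma adjusted p = 1.45e-07). *GABARAPL1* was higher by 0.24 (limma adjusted p = 0.00101), and *GABARAPL2* changed by -0.15 (limma adjusted p = 0.009). With sip53 *MAP1LC3B* had 66.40 and 50.17 FPKM against 57.86 and 71.08 FPKM with siCTRL, so the groups overlapped, and the change of -0.15 had a 95% interval from -0.73 to 0.42.

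*SQSTM1* encodes p62, which carries ubiquitinated cargo to ATG8 proteins and is itself degraded by autophagy. It read 8.33, 8.30 and 8.26 log2 CPM in *ZMAT3*-WT and 9.0, 8.95 and 8.98 in *ZMAT3*-KO. The lowest knockout library was well above the highest wild-type library, and the log2 change of 0.68, or 1.60-fold, was the largest of the set (SE 0.0284, limma adjusted p = 8.45e-10). *MGAT4B*, a gene whose exons overlap those of *SQSTM1* on the opposite strand, was also higher in the knockout, by 0.54 (limma adjusted p = 2.15e-08), and *MRNIP*, which overlaps it as well, was at 0.05. The *ZMAT3* libraries were made with a stranded kit, and whether strand was used in the counting is not given in the sources used here. Under siCTRL *SQSTM1* read 198.40 and 184.32 FPKM, under sip53 186.10 and 215.40 FPKM, a change of 0.07 with a 95% interval from -0.42 to 0.55. The other cargo receptor, *NBR1*, was at 0.07 in the knockout (95% interval -0.02 to 0.15). With sip53 it had 32.06 and 28.27 FPKM against 35.68 and 39.31 FPKM, a change of -0.31 that did not pass.

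The transcription factor genes split. *TFE3* was higher in *ZMAT3*-KO, at 4.07, 4.03 and 4.16 log2 CPM against 3.74, 3.75 and 3.86, a change of 0.30 (SE 0.0544, limma adjusted p = 0.000428). *TFEB* was at 2.08, 2.04 and 2.16 log2 CPM against 2.32, 2.29 and 2.25, a change of -0.20 at the edge of the threshold (SE 0.0791, limma adjusted p = 0.0483), and the call was lost in 7 of 11 alternative settings. With sip53, *TFE3* read 8.02 and 9.84 FPKM against 10.65 and 9.86 FPKM and *TFEB* 2.05 and 3.10 FPKM against 2.70 and 3.08 FPKM, with log2 changes of -0.20 and -0.19 that did not pass.

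The lysosomal membrane genes were the group with 0 calls in either experiment by limma, at an adjusted or an unadjusted p under 0.05. *LAMP1* and *LAMP2*, which encode the most abundant glycoproteins of that membrane, had log2 changes of -0.05 and -0.01 in *ZMAT3*-KO, with 95% intervals from -0.12 to 0.01 and from -0.08 to 0.06. *MCOLN1*, the gene of the calcium channel TRPML1, read 4.07, 4.03 and 3.97 log2 CPM in *ZMAT3*-WT and 4.03, 3.95 and 3.86 in *ZMAT3*-KO, an overlapping difference of -0.08 (95% interval -0.20 to 0.04). With sip53 the 3 genes gave 0.06, 0.09 and -0.19 in the same order, and the intervals there were wider, from -0.44 to 0.56 for *LAMP1*. Over all genes, 28.7% were higher and 30.1% lower in *ZMAT3*-KO at an adjusted p under 0.05. At an unadjusted p under 0.05, 5.86% were higher and 9.28% lower with sip53. *LAMP1* and *MCOLN1*, like *CTSA* and *ATG3*, have TCACGTGA in their promoters, which for *ATG3* lies after the annotated start and outside the window shown.

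All 5 genes of proteases and of protective protein passed in *ZMAT3*-KO, 3 higher and 2 lower, where 28.7% of all genes were higher and 30.1% lower. *CTSD*, the gene of the aspartyl protease cathepsin D, was at 7.18, 7.13 and 7.20 log2 CPM in the knockout and 6.91, 6.79 and 6.80 in wild type, a change of 0.34 (SE 0.0352, limma adjusted p = 4.74e-06). *CTSB* was higher by 0.12 (limma adjusted p = 0.00509). *CTSL*, a cysteine protease like *CTSB*, changed by -0.29 (limma adjusted p = 1.17e-05).

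*TPP1* encodes tripeptidyl peptidase 1, which is lost in a form of neuronal ceroid lipofuscinosis. It read 5.75, 5.68 and 5.74 log2 CPM in *ZMAT3*-WT and 6.03, 5.99 and 6.05 in *ZMAT3*-KO, a change of 0.30 (SE 0.0343, limma adjusted p = 1.06e-05). Under siCTRL the gene stood at 62.19 and 48.09 FPKM, under sip53 at 20.62 and 24.13 FPKM. Both knockdown values were less than either control value by a wide margin, with a log2 change of -1.29, or 2.45-fold (SE 0.213, unadjusted p = 0.00139, limma adjusted p = 0.109). This was the largest change of the set in that experiment, and it passed the unadjusted threshold in each of 10 alternative settings, where it ran from -1.48 to -1.10.

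*CTSA* encodes protective protein, also called cathepsin A, which holds beta-galactosidase and neuraminidase in a stable lysosomal complex. In siCTRL cells its level was 96.88 and 78.59 FPKM, in sip53 cells 38.73 and 51.85 FPKM, a log2 change of -0.96, or 1.95-fold (SE 0.231, unadjusted p = 0.00765, limma adjusted p = 0.176). The libraries did not overlap. Its neighbours with overlapping exons, *PLTP* and *NEURL2*, were at 1.44 to 1.96 FPKM and at most 0.12 FPKM in these libraries. In the *ZMAT3* experiment *CTSA* read 6.69, 6.64 and 6.63 log2 CPM against 6.60, 6.48 and 6.55, a small difference in the same direction (-0.11, SE 0.0351, limma adjusted p = 0.0178).

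The partners of protective protein are *GLB1*, for lysosomal beta-galactosidase, and *NEU1*, for neuraminidase 1. *GLB1* went from 39.83 and 38.24 FPKM to 28.29 and 25.29 FPKM in the siRNA experiment, a change of -0.54 (SE 0.175, unadjusted p = 0.0243, limma adjusted p = 0.251). In *ZMAT3*-KO it was at 0.04 (95% interval -0.04 to 0.12). *TMPPE*, whose exons overlap those of *GLB1* on the same strand, read 0.33 and 0.19 FPKM with sip53 against 0.76 and 1.23 FPKM. Its log2 changes were -1.6 with sip53 (limma unadjusted p = 0.0214) and -0.62 in *ZMAT3*-KO. *NEU1* was at 4.70, 4.66 and 4.67 log2 CPM in *ZMAT3*-WT and 5.15, 5.09 and 5.20 in *ZMAT3*-KO, a change of 0.47, or 1.38-fold (SE 0.0406, limma adjusted p = 8.22e-07). With sip53 *NEU1* had 22.48 and 26.01 FPKM against 29.63 and 30.23 FPKM, and its change of -0.31 did not pass (unadjusted p = 0.143). Of the 3 genes of this complex, *CTSA* and *GLB1* passed with sip53 and *CTSA* and *NEU1* in the knockout, and the small knockout call of *CTSA* was lost in 2 of 11 alternative settings.

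*GUSB*, the beta-glucuronidase gene, had the second-largest rise of the set in *ZMAT3*-KO, from 4.49, 4.40 and 4.48 log2 CPM to 4.98, 4.92 and 5.02 log2 CPM. The change was 0.52, or 1.43-fold (SE 0.0441, limma adjusted p = 7.1e-07). With sip53 it was lower, at 14.01 and 15.20 FPKM against 22.64 and 20.06 FPKM (-0.54, SE 0.179, unadjusted p = 0.0265, limma adjusted p = 0.259). The groups were separate in both experiments, in opposite directions. *GLA* and *HEXA*, which encode alpha-galactosidase A and a subunit of beta-hexosaminidase, each gave -0.51 with sip53 and missed the threshold (unadjusted p = 0.0544 and 0.0581). In all 5 glycosidase genes both sip53 libraries lay below both siCTRL libraries, as in 26.3% of all genes, and their median log2 change was -0.507, against -0.04 for all genes. Of the 5, *GLB1* and *GUSB* passed the unadjusted threshold, and each call was lost in 5 of 10 alternative settings. In *ZMAT3*-KO, *GLA* was at 0.10 (limma adjusted p = 0.0509) and *HEXA* at -0.08 (limma adjusted p = 0.14).

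All 4 genes of sphingolipid hydrolases and their activators were higher in *ZMAT3*-KO at an adjusted p under 0.05, as were 28.7% of all genes. *SMPD1*, the acid sphingomyelinase gene, read 1.98, 1.76 and 1.92 log2 CPM in *ZMAT3*-WT and 2.36, 2.28 and 2.23 in *ZMAT3*-KO, a change of 0.40 (SE 0.089, limma adjusted p = 0.00184). *PSAP* read 8.76, 8.80 and 8.75 log2 CPM against 9.17, 9.14 and 9.17, a change of 0.39 (SE 0.0258, limma adjusted p = 7.27e-08). Both genes had groups that did not overlap. *GRN*, whose product progranulin is cleaved in the lysosome, and *ASAH1*, for acid ceramidase, were higher by 0.15 and 0.11 (limma adjusted p = 0.0051 and 0.0191). With sip53, *SMPD1* fell from 6.45 and 6.95 FPKM to 4.26 and 4.02 FPKM, a change of -0.68 (SE 0.189, unadjusted p = 0.0137, limma adjusted p = 0.209). *PSAP*, *GRN* and *ASAH1* had overlapping groups there, at -0.04, -0.02 and -0.20.

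Set side by side, the 8 genes that were lower with sip53 divided in the *ZMAT3* experiment. *TPP1*, *GUSB*, *SMPD1* and *ATG13* were higher in *ZMAT3*-KO, *CTSA*, *ATG9A* and *BECN1* were lower, and *GLB1* did not pass. Over all genes 28.7% were higher and 30.1% lower in *ZMAT3*-KO, so calls in both directions are not particular to these 8. The knockout calls of *CTSA*, *ATG9A*, *BECN1* and *ATG13* were each lost in 1 or 2 of 11 alternative settings, and the sip53 calls of all but *TPP1* in 1 to 5 of 10. The other 15 genes that were higher and 7 that were lower in *ZMAT3*-KO did not pass with sip53, where 5.86% of all genes were called higher and 9.28% lower. The tables were normalized separately, and the difference between the experiments was not tested.

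**Figure D3:**
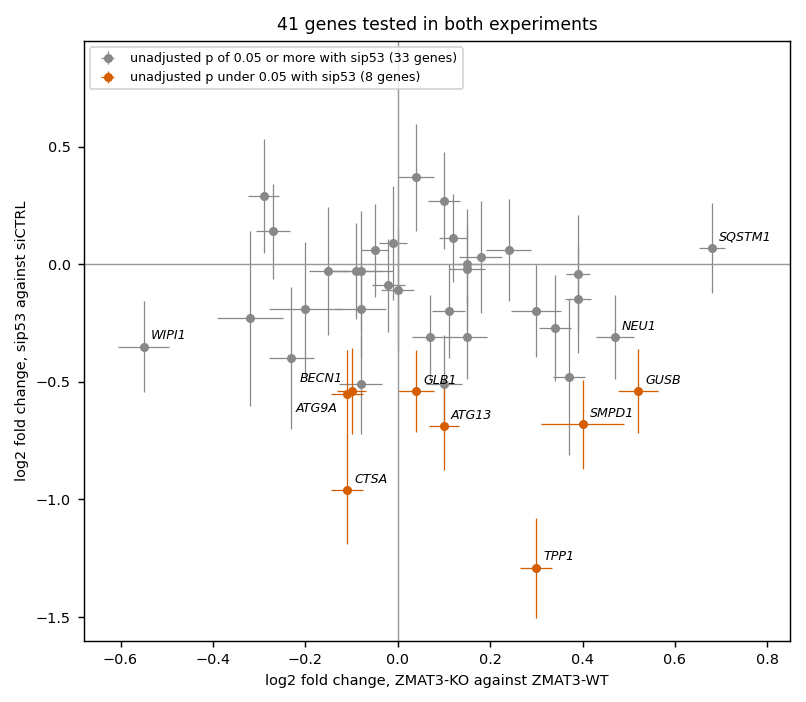
Each point is 1 of the 41 genes tested in both experiments, with the log2 fold change of *ZMAT3*-KO against *ZMAT3*-WT on the horizontal axis, that of sip53 against siCTRL on the vertical axis, and bars of 1 standard error. The 8 genes at an unadjusted p under 0.05 with sip53 lie below 0 on the vertical axis and on both sides of 0 on the horizontal axis, and *SQSTM1* lies at the far right close to 0 vertically.

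To place the set within its pathway, 136 other genes of autophagy and lysosome were examined in the same fits, of which 130 were tested in each experiment. In *ZMAT3*-KO 53 (40.8%) were higher and 42 (32.3%) lower at an adjusted p under 0.05, against 28.7% and 30.1% of all genes. The median log2 change of the 130 genes was 0.022, against -0.005 for all genes. Changes of at least 1.5-fold were found in 3 genes in each direction (2.31% each), fewer than among all genes (4.6% higher and 4.37% lower). The higher genes were *IDUA* (0.97), *ARSA* (0.82) and *HGSNAT* (0.73), which encode enzymes that degrade glycosaminoglycans or sulfatides; with a pseudocount of 1 CPM that count was 1. The lower genes were *FLCN* (-1.70), *VPS41* (-0.69) and *LGMN* (-0.59).

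*FLCN* encodes folliculin, a GTPase-activating protein for the RagC and RagD GTPases that controls whether TFEB and TFE3 stay in the cytoplasm. Its log2 CPM was 3.60, 3.58 and 3.63 in *ZMAT3*-WT and 1.86, 1.84 and 2.01 in *ZMAT3*-KO. No values of the groups came near each other, and the change of -1.70, or 3.25-fold, was larger than that of any of the 42 genes (SE 0.071, limma adjusted p = 8.44e-10). Another annotated gene on the same strand shares exons with *FLCN*, so its reads may be divided. *VPS41*, a subunit of the HOPS tethering complex that fuses autophagosomes and endosomes with lysosomes, read 5.58, 5.61 and 5.61 log2 CPM against 4.82, 4.97 and 4.93 (limma adjusted p = 3.3e-08). Over all genes, 28.7% were higher and 30.1% lower at this threshold. Of 13 other lysosomal membrane genes 8 were higher and 1 lower, of 9 other cargo receptor genes 6 and 2, of 9 other genes of the initiation complexes 2 and 5, and of 7 other genes of the ATG8 system 2 and 1. The 13 fusion genes gave 4 higher and 5 lower, the 21 genes of nutrient signalling 10 and 6, the 16 V-ATPase genes 6 and 5, and the 32 other hydrolase and luminal genes 11 and 13.

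With sip53, 30 of the 130 other pathway genes (23.1%) were lower and 2 (1.54%) were higher at an unadjusted p under 0.05, where 9.28% of all genes were lower and 5.86% higher. Their median log2 change was -0.211, against -0.04 for all genes. When each library was centred on its median gene, the split was 23 lower and 7 higher. Without siCTRL replicate 1 the count of lower genes was 11, without sip53 replicate 2 it was 18, and a fit with replicate number as a blocking factor gave 18. The higher genes were *BNIP3*, a mitophagy receptor, at 0.61 and the protease gene *CTSH* at 0.72. The 130 genes include 10 that were listed for known links to p53. These held 6 of the 30 lower genes, so the share of 23.1% is not independent of that choice.

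This list of 10 autophagy and stress genes known to be linked to p53 had 6 members lower (60%, against 9.28% of all genes). *TP53INP1*, which encodes a p53-induced protein that binds ATG8 proteins, went from 25.07 and 32.92 FPKM in siCTRL cells to 3.42 and 2.32 FPKM in sip53 cells. That change of -3.30 was the only one of the pathway to pass an adjusted p of 0.05 (SE 0.267, limma adjusted p = 0.0387), and it did not pass without siCTRL replicate 1 or without siCTRL replicate 2. The sestrin genes *SESN1* (-1.43) and *SESN2* (-1.22), whose products restrain mTORC1, *TIGAR* (-1.20), *TP53INP2* (-1.06) and *PRKAB1* (-0.78), a subunit of AMPK, followed at unadjusted p. In *ZMAT3*-KO the same list had 4 higher and 4 lower of 10 at limma adjusted p (40% each, against 28.7% and 30.1% of all genes).

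Outside that list, 10 of 32 other hydrolase and luminal genes (31.2%) were lower with sip53, against 9.28% of all genes, and 1 was higher. *IDUA*, for alpha-iduronidase, went from 3.29 and 3.53 FPKM to 1.31 and 1.33 FPKM, a change of -1.30 (SE 0.238, unadjusted p = 0.00219, limma adjusted p = 0.123). *MAN2B1* (-1.26), *GAA* (-1.09), *ACP2* (-1.04), *GALNS* (-0.99), *GNPTG* (-0.96), *HGSNAT* (-0.73) and *IDS* (-0.61) were lower by at least 1.5-fold as well. They encode acid hydrolases, except for *HGSNAT*, an acetyltransferase of heparan sulfate breakdown, and *GNPTG*, a subunit of the enzyme that marks hydrolases with mannose 6-phosphate. *IGF2R*, the gene of the receptor that carries those marked hydrolases to the lysosome, changed by -0.96. Of 13 fusion genes, 5 (38.5%) were lower, with *VPS18* (-0.90) and *VPS39* (-0.68) of the HOPS complex, *EPG5* (-0.88) and *PLEKHM1* (-0.67) past 1.5-fold, and in 10 of the 13 both sip53 libraries lay below both siCTRL libraries (76.9%, against 26.3% of all genes). *WDFY3* (-0.86) and the V-ATPase genes *ATP6V0D1* (-0.90) and *ATP6V1G1* (-0.62) were also lower by at least 1.5-fold. The remaining groups were nearer the 9.28% of all genes. Lower were 2 of 16 V-ATPase genes (12.5%), 2 of 21 nutrient signalling genes (9.52%) and 2 of 13 other lysosomal membrane genes (15.4%). So were 2 of 9 other cargo receptor genes (22.2%, with 1 higher), 1 of 9 other initiation genes (11.1%) and 0 of 7 other ATG8 system genes. All of these rest on the unadjusted threshold.

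**Figure D4:**
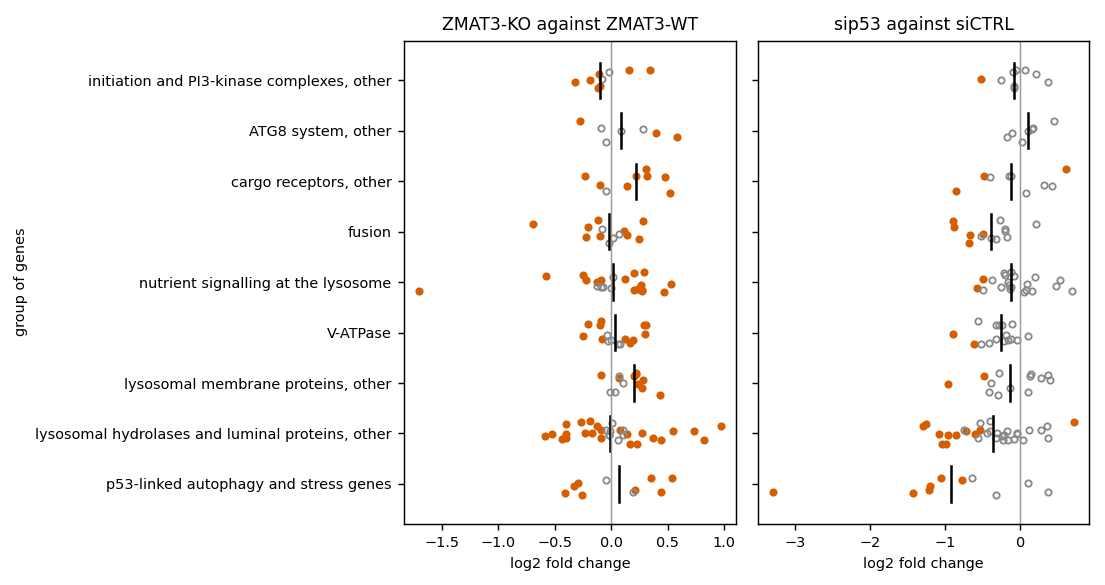
Each point is 1 of the other pathway genes, placed by its log2 fold change in *ZMAT3*-KO against *ZMAT3*-WT (left) or sip53 against siCTRL (right) and by group, with filled points past the threshold (adjusted p under 0.05 on the left, unadjusted p under 0.05 on the right), open points otherwise, and a vertical bar at the median of each group. *FLCN* is the point at -1.70 on the left and *TP53INP1* the point at -3.30 on the right, where the median of the p53-linked group is -0.92.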

How the data were processed

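The authors deposited the *ZMAT3* table as log2 CPM (log2 values of read counts scaled to library size) with the same distribution in all 6 libraries, made from STAR alignments to hg38 and RSEM quantification; how RSEM output became log2 values is not given in the sources used here. The deposited siRNA table holds values read here as FPKM, because value times transcript length tracked the signal in the authors' baseMean column. For those libraries, how the values were computed is not given in the sources used here; the submitters' processing notes list CASAVA 1.8.2, TopHat2 2.0.8 and the builds hg19 and hg38 with no role. Columns with the authors' own fold changes and p-values were not used.

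The *ZMAT3* values were fitted as deposited with no filter, and the siRNA values as log2(FPKM + 0.1) wherever the mean over the libraries reached 0.5 FPKM, so fold changes there are on that scale and understate changes of low genes. Each table was fitted separately with limma 3.58.1 in R 4.3.3 (variance trend, two-sided, Benjamini-Hochberg over the table), after the script was tested on simulated data. Exact permutation tests cannot go below p = 0.1 with 3 against 3 or p = 0.333 with 2 against 2, so none was used. The threshold with sip53 is unadjusted because the study used it.

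The genes, roles and pathway list were chosen with earlier results of these data known. Full values are given for genes past an adjusted p of 0.05 with 1.5-fold in *ZMAT3*-KO, for those past an unadjusted p of 0.05 with sip53, for the 12 largest called changes in *ZMAT3*-KO, and for the largest change of each role. Other pathway genes are named where they passed an adjusted p with 1.5-fold, or an unadjusted p with 1.5-fold with sip53. Of the 42 genes, 16 share exon sequence with another protein-coding gene. For *ATG9A*, *CTSD*, *GLB1*, *HEXA* and *MCOLN1* the overlap is on the same strand, so their reads may be divided. Replicate numbers do not pair the libraries. Alternatives covered the pseudocount, filter, centring, variance trend, replicate block and each library left out. Promoters came from RefSeq (GRCh38.p14). Values of the gene targeted by sip53 and of some pathway genes that passed are not reported here.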

Additional observations from a re-analysis of the deposited data

How the results depend on the processing

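No called direction reversed. In *ZMAT3*-KO, 21 of the 29 calls among the 42 genes held in every alternative setting. The calls of *ASAH1*, *ATG13*, *ATG5*, *ATG9A*, *BECN1*, *CTSA*, *TFEB* and *ULK1* were lost in at least 1. Centring could change little here, because the libraries were deposited with the same distribution (shift of the median gene -0.00052). Leaving out each library in turn gave 17 to 20 higher and 6 to 10 lower genes, with 6 without *ZMAT3*-KO replicate 2, and 0 to 1 lower by 1.5-fold, with 1 without *ZMAT3*-WT replicate 3. With a pseudocount of 1 CPM, 1 in place of 3 other pathway genes was higher by 1.5-fold. The same-numbered libraries did not deviate together (r from -0.093 to -0.0218), and the replicate block gave 20 higher and 9 lower genes.

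With sip53, 1 of the 8 calls, *TPP1*, held in every planned setting. The count of lower genes among the 41 ran from 1 (without siCTRL replicate 1) to 6 when each library was left out, and was 2 with the replicate block. Among the other pathway genes, 11 (without siCTRL replicate 1) to 25 were lower and 0 to 2 higher when each library was left out, and 18 were lower and 0 higher with the block. Centring gave 7 higher pathway genes, and no variance trend gave 1. At adjusted p the lower pathway count of 1 became 0 with no filter on low values or no variance trend, and 0 to 1 when libraries were left out. A lone remaining library is assumed to vary like the other group. Same-numbered siRNA libraries deviated in opposite directions (r = -0.6165). A crossed replicate block, chosen after seeing the data, gave 3 higher and 16 lower genes of the 41 (0 and 12 at adjusted p). It gave 15 higher and 53 lower other pathway genes (7 and 41 at adjusted p). The share of all genes called under that block is not given here, so these counts cannot be read as particular to the set or pathway. The median of the 41 genes was -0.119 after centring, which removed a shift of -0.0758 in the median gene. The causes of these changes were not tested. With 2 libraries a group and no counts, the precision of single low genes is not known.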

Other observations

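The genes of this paragraph were chosen after their values were seen. *FNIP1* changed by -0.58 in *ZMAT3*-KO, from 4.30, 4.37 and 4.23 log2 CPM to 3.67, 3.82 and 3.68 (limma adjusted p = 2.85e-06), while its paralog *FNIP2* changed by 0.53, from 3.40, 3.44 and 3.37 log2 CPM to 3.88, 4.00 and 3.91 (limma adjusted p = 3.8e-06). Another annotated gene on the same strand shares exons with *FNIP1*. *RRAGC* and *RRAGD*, which encode the GTPases that folliculin acts on, were higher by 0.29 and 0.27. The other Rag GTPase genes, *RRAGA* and *RRAGB*, were higher as well, by 0.24 and 0.47, so the rise was not particular to *RRAGC* and *RRAGD*. *BNIP3L*, a mitophagy receptor, was higher by 0.52 (limma adjusted p = 8.53e-07) and *WDR45*, a PROPPIN like *WIPI1*, by 0.58 (limma adjusted p = 3.09e-06).

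In the RefSeq promoters of the other pathway genes, CACGTG was present in 24 of 103 genes (23.3%) and TCACGTGA in 11 (10.7%), close to the shares of 19.4% and 11.1% among the 36 genes with a promoter.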
